A study of Mus musculus with 6 samples.

Results

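Nicotinic acetylcholine receptors are ion channels built from 5 subunits around a central pore, which opens when acetylcholine or nicotine binds. The genes described here are 7 subunit genes, among 28043 genes measured in mouse retinal pigment epithelium (RPE): Chrna5, Chrna3 and Chrnb4, which lie side by side on chromosome 9, and Chrna4, Chrna7, Chrnb1 and Chrnb2, which lie at 4 other loci. They were matched by gene symbol, and all 7 had a row in the tables. The list had been chosen from their measured levels in PVR and Normal libraries, so the comparison of those levels is given as a description with no test.

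The samples are primary RPE cells from mouse eyes, in 3 libraries labelled PVR and 3 labelled normal (called Normal here). PVR is proliferative vitreoretinopathy, a scarring disorder of the retina, and the series title describes the disease studied as traumatic. The labels used here give neither strain, age and sex nor how PVR was produced and how many animals a library pooled. They do not say that replicates came from separate animals, so the p-values speak of the variation among 6 libraries, part or all of which can be technical.

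Alpha and beta subunits combine in set ways. An alpha7 subunit can form a channel on its own, alpha4 pairs with beta2 in the brain type of receptor, and alpha3 pairs with beta4 in the type that carries signals through autonomic ganglia. Alpha5 and beta3 subunits only join channels that already hold another alpha and beta, and beta1 is the beta subunit of the receptor at the nerve-muscle junction. The genes for alpha5, alpha3 and beta4 are neighbours in mammals and are expressed together in ganglia and in the medial habenula of the brain.

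Values are normalised read counts: reads per gene divided by 1 size factor per library. Between 15269983 and 19173187 reads per library had been assigned to genes, and 3 reads, the limit that a count of 0 allows, equal 2.72 to 3.42 normalised counts. Log2 changes are the PVR mean less the Normal mean of log2(normalised count + 1), a scale that shrinks differences in genes with few reads. In the fit over 15766 genes that passed the filter on low counts, 30.8% passed an adjusted p of 0.05 (limma, Benjamini-Hochberg), 17.9% as higher and 12.9% as lower in PVR (2033 genes lower, or 1307 without Normal replicate 1). PVR replicate 3 lay nearer the Normal libraries than its 2 replicates did, with correlations across genes of 0.929 to 0.935 against 0.880 to 0.893. Normal replicate 2 carried more retinal RNA than the other Normal libraries, where Aqp4, the water channel gene of Müller glia, had 103 reads against 0 and 3 in Normal replicates 1 and 3 (4, 26 and 5 in PVR), so results are also given without these 2 libraries where that matters. Of the 10 RPE markers listed for the check, Best1 was near the limit of detection (16, 20 and 8 reads in PVR, against 10, 13 and 15 in Normal), and each of the others had at least 2199 normalised counts in every library. The sum of the list, most of it Ttr and Rgr, was 595183 to 653876 in PVR and 822913 to 896622 in Normal, and 7 of 10 markers fell in PVR. In bulk RNA, fewer cells of a type and less RNA per cell cannot be told apart.

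The 2 cluster genes that were clearly detected stood far higher in PVR than in Normal libraries. Chrnb4, the beta4 subunit gene (chromosome 9, 55028154 to 55048779 on GRCm38, minus strand), had 4865, 5316 and 5154 normalised counts in PVR replicates 1 to 3, against 399, 579 and 573 in Normal replicates 1 to 3. The groups lay far apart, and the highest PVR value was 1.09 times the lowest. The PVR mean of 5112 ± 228 was 9.89 times the Normal mean of 517 ± 102 (SD, n = 3 each), a log2 change of 3.32 (SE 0.15).

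Chrna3, the alpha3 subunit gene (chromosome 9, 55010111 to 55026562, minus strand), had 280.1, 361 and 249 normalised counts in PVR, against 7.21, 11.1 and 18.1 in Normal. Its Normal values rest on 7, 12 and 20 reads, and the exact Poisson 95% interval of the lowest runs from 2.81 to 14.4 reads, which covers counting error only. The groups did not overlap, and the ratio of means was 24.4 (297 ± 57.7 against 12.2 ± 5.53, SD, n = 3 each; log2 change 4.57, SE 0.34). Chrna3 was thus near the limit of detection in Normal, where Chrnb4 was well above it.

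Chrna5, the gene of the accessory alpha5 subunit (chromosome 9, 54980880 to 55007779, plus strand), did not share this pattern at a detectable level. It had 3, 3 and 2 reads in PVR (3.09, 3.42 and 1.89 normalised counts) and 0, 0 and 3 reads in Normal. Both groups sit at or near the limit that a count of 0 allows, so no fold is given, and the gene was left out of the fit by the filter on low counts. In the same PVR libraries the 3 cluster genes thus averaged 5112, 297 and 2.80 normalised counts.

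**Figure D1:**
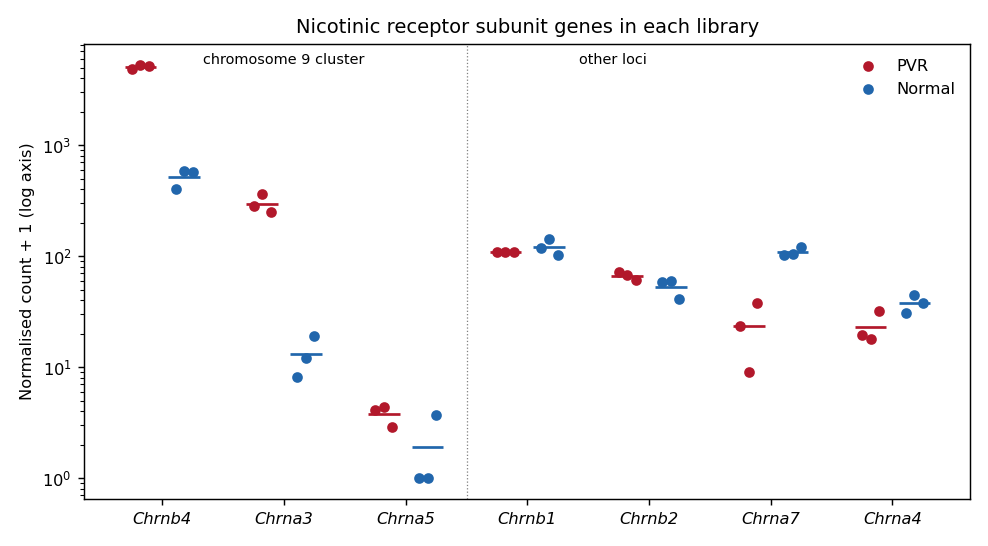
Each point is 1 library's normalised count plus 1 on a log axis, for the 7 subunit genes, with PVR libraries left of Normal ones and bars at group means. Chrnb4 and Chrna3 are higher in all 3 PVR libraries, Chrna7 is lower in all 3, and Chrna5 stays near the bottom of the axis in both groups.

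The 3 cluster genes occupy 67900 bases. Chrna5 runs on the plus strand and ends 2331 bases from the end of Chrna3, and Chrna3 starts 1591 bases beyond the end of Chrnb4 on the same strand. None of the 3 shares annotated exon bases with another gene. The sequences around their start sites, from RefSeq on GRCm38.p6, are shown because Chrnb4 and Chrna3 were high together while Chrna5 was not. Each window runs from 250 bases before to 50 bases after the RefSeq start. The gene spans given above are from GENCODE, and the starts used do not all match them. The Chrnb4 start and the Chrna5 start shown lie inside those spans, so part of the bases before them is within the annotated gene. The Chrna3 start and the other Chrna5 start match the ends of their spans. Windows were searched on both strands for the GC box GGGCGG, which Sp-family factors bind, the E box CANNTG, which basic helix-loop-helix factors bind, the AP-1 site TGANTCA and the NFAT core GGAAAA. Capitals mark GC boxes and E boxes, and the sequences read 5′ to 3′ on the gene's strand. For Chrna5 the second of its 2 annotated starts is shown. The windows are chr9:55048495-55048794 (minus strand) for Chrnb4, chr9:55026513-55026812 (minus strand) for Chrna3 and chr9:54981238-54981537 (plus strand) for Chrna5.
Chrnb4: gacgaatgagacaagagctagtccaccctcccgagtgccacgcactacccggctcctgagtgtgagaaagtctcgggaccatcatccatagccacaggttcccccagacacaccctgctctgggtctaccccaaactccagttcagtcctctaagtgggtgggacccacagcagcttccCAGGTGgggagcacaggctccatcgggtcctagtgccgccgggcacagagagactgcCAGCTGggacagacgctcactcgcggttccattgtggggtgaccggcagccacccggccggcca
Chrna3: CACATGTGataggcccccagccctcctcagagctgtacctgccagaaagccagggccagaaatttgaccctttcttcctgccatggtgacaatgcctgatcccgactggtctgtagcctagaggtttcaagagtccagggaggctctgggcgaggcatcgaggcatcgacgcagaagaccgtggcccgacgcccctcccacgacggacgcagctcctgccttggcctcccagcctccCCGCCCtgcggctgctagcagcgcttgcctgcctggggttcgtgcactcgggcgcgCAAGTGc
Chrna5: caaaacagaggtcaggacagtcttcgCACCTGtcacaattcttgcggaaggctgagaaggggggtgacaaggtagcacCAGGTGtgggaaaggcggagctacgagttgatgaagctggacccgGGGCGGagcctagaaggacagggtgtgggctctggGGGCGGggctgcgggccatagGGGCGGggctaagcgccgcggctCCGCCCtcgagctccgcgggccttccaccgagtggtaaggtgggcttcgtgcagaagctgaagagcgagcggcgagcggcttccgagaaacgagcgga

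The Chrnb4 window holds 2 E boxes and no GC box. The Chrna3 window holds 1 GC box and 3 E boxes, of which 2 overlap at its first bases. The Chrna5 window, whose gene was barely detected, holds 4 GC boxes and 2 E boxes, whereas the window at the other annotated Chrna5 start holds 0 GC boxes and 2 E boxes. No window of the 3 contains the AP-1 site or the NFAT core. Of 32851 such windows in the RefSeq table, 35.7% hold a GC box, 72.3% an E box, 7.81% an AP-1 site and 23.4% an NFAT core, so the matches found are common ones. A match is a description of letters and not evidence of a bound site. GC content was 63.0%, 64.3% and 65.0% in the Chrnb4, Chrna3 and Chrna5 windows shown, and 41.3% in the other Chrna5 window.

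The 4 subunit genes at other loci did not show the pattern of Chrnb4 and Chrna3. Chrna7, the gene of the alpha7 subunit (chromosome 7, 63098692 to 63212569), was lower in PVR: 22.7, 7.97 and 36.8 normalised counts in PVR, against 102, 105 and 119.6 in Normal. The groups did not overlap, and PVR replicate 2, with 7 reads, was the lowest. Its Normal mean of 109 ± 9.50 was 4.84 times its PVR mean of 22.5 ± 14.4 (SD, n = 3 each), a log2 change of -2.45 (SE 0.48). The change was larger than that of any of the 10 RPE markers, among which Rpe65, the retinoid isomerase gene, fell most (log2 change -1.46).

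Chrna4, whose alpha4 subunit pairs with beta2 in brain (chromosome 2, 181018380 to 181043546), had 18.5, 17.1 and 31.2 normalised counts in PVR, against 29.9, 43.5 and 37.2 in Normal. The highest PVR value lay inside the Normal range. Chrnb2, the gene of that partner (chromosome 3, 89746195 to 89764632), had 71.0, 66.1 and 59.5 in PVR, against 57.7, 59.3 and 39.9 in Normal. The lowest PVR and the highest Normal value nearly met, and 1365 of its exon bases are shared with Adar on the other strand, so its level is uncertain. Chrnb1, the muscle beta subunit gene (chromosome 11, 69784036 to 69795943), had 108, 107 and 108 in PVR, against 117.5, 142 and 102 in Normal, and the PVR values lay within the Normal range. The log2 changes were -0.74 (SE 0.36) for Chrna4, 0.34 (SE 0.26) for Chrnb2 and -0.15 (SE 0.20) for Chrnb1.

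Of the 7 genes, 6 passed the filter on low counts. The groups did not overlap for 4 of these 6 (Chrnb4, Chrna3, Chrna7 and Chrnb2), and for 48.0% of all genes tested. Since the genes were chosen with this contrast known, nothing is read from this count. The cluster gave log2 changes of 3.32 and 4.57 and the other loci -2.45 to 0.34, and with Normal replicate 2 and PVR replicate 3 both left out these were 3.41 and 4.67 against -2.94 to 0.50.

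Levels of different genes were compared per kilobase of annotated exon. In PVR, Chrnb4 came first at 1373 ± 61.3 normalised counts per kb (SD, n = 3), followed by Chrna3 at 56.4 ± 11.0 and Chrnb1 at 42.5 ± 0.21. The ranges of these 3 did not meet. Chrnb2 (7.82), Chrna7 (4.99) and Chrna4 (4.43) followed with overlapping ranges between neighbours, and Chrna5 was last at 0.90 per kb. In Normal the order was Chrnb4 (139 ± 27.5), Chrnb1 (47.6 ± 7.83), Chrna7 (24.1 ± 2.11), Chrna4 (7.34), Chrnb2 (6.24), Chrna3 (2.31 ± 1.05) and Chrna5 (0.29). Only Chrna4 and Chrnb2 overlapped among neighbours there. Chrna3 held rank 2 in PVR and rank 6 in Normal, and Chrna7 held rank 5 in PVR and rank 3 in Normal.

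**Figure D2:**
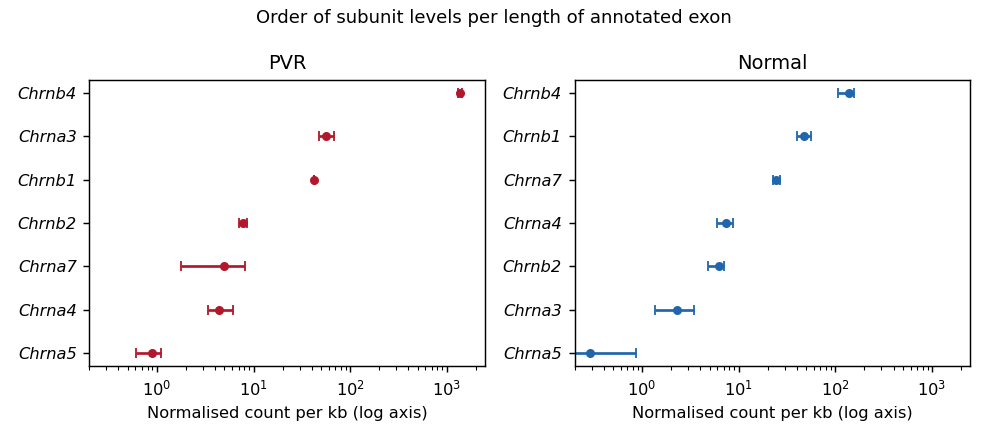
Points are group means of normalised counts per kilobase of annotated exon on a log axis, with bars from the lowest to the highest library, in PVR (left) and Normal (right), genes ordered by mean. Chrnb4 leads in both groups, and Chrna3 has rank 2 in PVR and rank 6 in Normal; the bar of Chrna5 in Normal is cut at the left edge because 2 libraries had no read.

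Chrnb4 made up 92.0%, 91.9% and 92.5% of the summed level per kb of the 7 genes in PVR replicates 1 to 3, against 56.3%, 61.6% and 64.8% in Normal replicates 1 to 3. Chrna7 made up 0.35%, 0.11% and 0.55% of that sum in PVR, against 11.9%, 9.20% and 11.2% in Normal. The level of Chrnb4 per kb was 24.6, 20.8 and 29.2 times that of Chrna3 in PVR, against 78.2, 73.7 and 44.7 times in Normal. So the alpha3 transcript was scarcer than the beta4 transcript in every library, by less in PVR. Among 15586 tested genes with an annotated length, Chrnb4 ranked 450 by level per kb in PVR, against 4866 in Normal, and Chrna3 ranked 8417 in PVR, against 14843 in Normal.

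The remaining subunit genes were at the edge of detection. Chrna1, Chrna2, Chrna6, Chrna9, Chrnb3, Chrne and Chrng, which encode muscle, brain and sensory subunits, each had at most 9.27 normalised counts in any library, and none passed the filter on low counts. Chrna1, the muscle alpha subunit gene, had 6, 8 and 2 reads in PVR, against 0, 0 and 1 in Normal. Chrna10 and Chrnd had no values under these symbols and could not be analysed here. Among the alpha subunit genes of the 7, Chrna3 had the highest level per kb in PVR and Chrna7 in Normal.

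Genes flanking the cluster were tested, since they were not among the genes chosen. The split of the subunit genes into the cluster and other loci was itself by position, and was made with the contrast known. Of the 10 nearest protein-coding genes on each side, 15 were tested, and 1 rose and 2 fell (limma adjusted p under 0.05). Their median log2 change was -0.12, against -0.02 for all genes tested, of which 17.9% rose and 12.9% fell. The nearest gene on the side of Chrna5, the proteasome subunit gene Psma4, lies 22.9 kb away and averaged 984 ± 67.8 in PVR and 1027 ± 53.5 in Normal (log2 change -0.06, limma adjusted p = 0.676). The nearest on the side of Chrnb4, the ubiquitin-conjugating enzyme gene Ube2q2, lies 100.1 kb away and averaged 756 ± 47.3 in PVR and 804 ± 43.1 in Normal (log2 change -0.09, adjusted p = 0.553). Neither passed the test, nor did Hykk, Ireb2, Fbxo22 and Nrg4, the next genes with enough reads to test. Hykk, 31.0 kb away, had the largest change of these, with no overlap between groups. It averaged 144 ± 25.7 in PVR and 196 ± 12.2 in Normal (log2 change -0.46, limma adjusted p = 0.0854). Psma4 shares 114 exon bases with AY074887 on the other strand, and Fbxo22 and Nrg4 share 368 with each other.

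The 3 neighbours that passed lie 265 to 1041 kb from the cluster. Pstpip1, a gene of blood cells, rose (107 ± 44.0 in PVR and 22.9 ± 5.89 in Normal, log2 change 2.12, limma adjusted p = 0.00251). Dnaja4, a heat shock co-chaperone gene, fell (863 ± 219 in PVR and 3327 ± 1837 in Normal, adjusted p = 0.0265), and so did the calcium-binding protein gene Rcn2 (2129.8 ± 115 in PVR and 2714 ± 205 in Normal, log2 change -0.35, adjusted p = 0.0274). Both falls were lost without Normal replicate 3, PVR replicate 1 or PVR replicate 2. Without Normal replicate 1 only Dnaja4 passed, and without PVR replicate 3 only Rcn2 did. Dnaja4 shares 1581 exon bases with Wdr61 on the other strand and is uncertain to that extent.

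**Figure D3:**
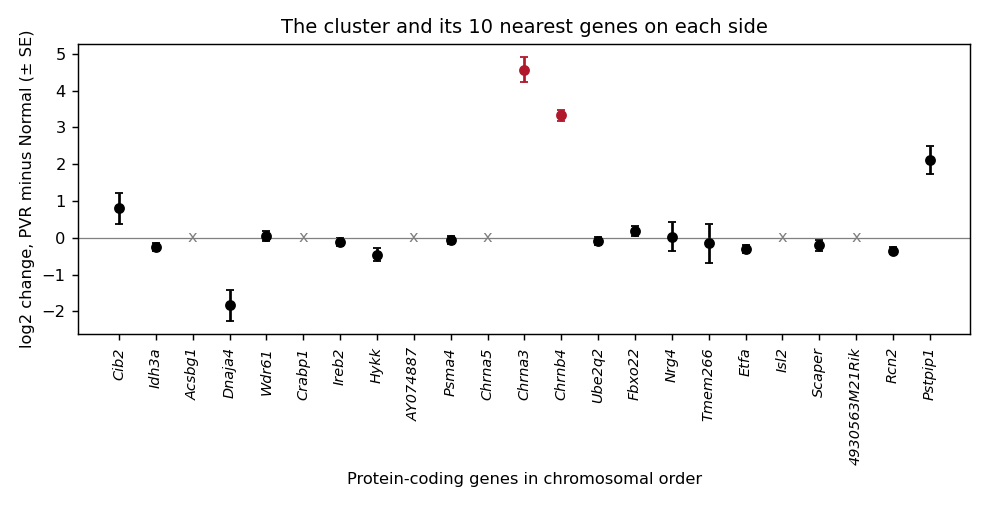
The log2 change (PVR minus Normal, with its SE) is drawn for the 3 cluster genes (red) and the 10 nearest protein-coding genes on each side (black), in chromosomal order; a cross marks a gene with too few reads to test. Chrna3 and Chrnb4 stand at 4.57 and 3.32, Psma4 and Ube2q2, the nearest on each side, lie near 0, and Hykk lies at -0.46.

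Around the other 4 subunit genes, 9 of the 16 nearest genes (2 on each side) were tested, of which 2 rose and 3 fell. With so few genes, nothing is read from these counts beside the shares of 17.9% and 12.9% over all genes tested. Next to Chrnb1, Fgf11, which encodes a fibroblast growth factor homologous factor, fell (38.0 ± 12.8 in PVR and 140.1 ± 14.8 in Normal, limma adjusted p = 0.00117), and Zbtb4 fell (log2 change -0.37, adjusted p = 0.0334). Near Chrnb2, the potassium channel gene Kcnn3 rose (88.9 ± 11.1 in PVR and 26.2 ± 8.60 in Normal, adjusted p = 0.00207). Beside Chrna4, the collagen gene Col20a1 fell (69.2 ± 4.71 in PVR and 144 ± 37.1 in Normal, adjusted p = 0.011). The transcription factor gene Klf13, 674 kb from Chrna7, rose (log2 change 0.64, adjusted p = 0.0308). The calls of Klf13, Zbtb4 and Col20a1 each depended on single libraries. Klf13 was called neither without Normal replicate 1 or 2 nor without PVR replicate 1 or 2 (limma adjusted p 0.0641 to 0.101). Zbtb4 was not called without Normal replicate 1 or 3 or PVR replicate 2 (0.0951 to 0.112), nor Col20a1 without Normal replicate 1 (0.0515) or without both Normal replicate 2 and PVR replicate 3 (0.0569). Arfgap1 near Chrna4 did not pass (adjusted p = 0.0792) but did with the replicate number as a block (log2 change 0.35, adjusted p = 0.0239).

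Genes that act around these receptors were then counted in lists by role. Over all 5 lists 26 genes were tested, of which 7 rose and 7 fell, and their median log2 change was 0.00. Without Normal replicate 3 or without PVR replicate 2, 4 fell. Of all genes tested, 17.9% rose and 12.9% fell, the shares to set beside these counts and those of each list. In the list of acetylcholine supply and breakdown, 3 of 4 tested genes rose and 1 did not pass (median log2 change 0.65). Ache, which encodes the enzyme that breaks down acetylcholine (chromosome 5), had 996, 359 and 313 normalised counts in PVR, against 12.4, 20.4 and 9.06 in Normal. PVR replicate 1 was the highest, and the groups did not overlap. Ache averaged 556 ± 382 in PVR and 13.9 ± 5.82 in Normal (SD, n = 3 each), a ratio of 39.9 (log2 change 5.09, SE 0.47, limma adjusted p = 0.000237). Without PVR replicate 1 the ratio was 24.1 and the log2 change 4.56. The call held in all 15 alternatives run, with an adjusted p of at most 0.00305. Ache shares 98 exon bases with the non-coding gene Gm42456 on the other strand.

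The choline transporter-like genes Slc44a1 (559.8 ± 64.2 in PVR and 361 ± 45.3 in Normal, limma adjusted p = 0.00775) and Slc44a2 (907 ± 116 in PVR and 572 ± 98.6 in Normal, adjusted p = 0.00737) also rose, and Slc44a1 shares 310 exon bases with an antisense gene. Prima1, which anchors the esterase in membranes, did not pass (39.2 ± 11.7 in PVR and 28.5 ± 1.91 in Normal, adjusted p = 0.388). The high-affinity choline transporter gene Slc5a7, a defining gene of cholinergic neurons, had 0, 1 and 2 reads in PVR and 3, 0 and 0 in Normal. Chat and Slc18a3, for acetylcholine synthesis and its vesicular transport, had no values under these symbols and could not be analysed here. Bche, for butyrylcholinesterase, had at most 17 reads in any library.

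The muscarinic receptors are the G-protein-coupled acetylcholine receptors, and both of their genes that could be tested rose. Chrm1 had 245, 185 and 215 normalised counts in PVR, against 54.6, 92.6 and 112 in Normal, with no overlap (log2 change 1.35, SE 0.27, limma adjusted p = 0.0043). Chrm3 had 294, 293 and 252 in PVR, against 168, 120.4 and 159 in Normal, with no overlap (log2 change 0.92, SE 0.17, adjusted p = 0.00347). Chrm1 shares 329 exon bases with the non-coding gene Gm22820 on the other strand. Chrm2, Chrm4 and Chrm5 were too low to test.

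Genes for the assembly, modulation and clustering of nicotinic receptors moved in both directions, with 2 higher, 5 lower and 5 not passing of 12 tested (median log2 change -0.43). Ric3, an endoplasmic reticulum chaperone that promotes the maturation of alpha7 receptors, fell: 917, 1003 and 1169 normalised counts in PVR, against 1631.5, 1527 and 1846 in Normal (log2 change -0.70, SE 0.12, limma adjusted p = 0.00229). The related Ly6-type modulators Lypd6 (129 ± 15.5 in PVR and 276 ± 57.5 in Normal, adjusted p = 0.00247) and Lypd6b (36.7 ± 12.7 in PVR and 90.2 ± 4.44 in Normal, adjusted p = 0.00807) fell as well. The groups did not overlap for any of the 3, and Ric3 shares 149 exon bases with Tub on the other strand. Lrp4, the agrin co-receptor gene (484 ± 78.5 in PVR and 721 ± 79.4 in Normal, adjusted p = 0.0129), fell, a call lost without Normal replicate 3 (adjusted p = 0.0509). Ubxn2a, whose protein is reported to bind the alpha3 subunit, fell by 0.35 on the log2 scale (adjusted p = 0.0286), a call lost without any 1 of the 3 Normal libraries or PVR replicate 2 (adjusted p 0.0502 to 0.0962), and without both Normal replicate 2 and PVR replicate 3 (0.092).

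Ly6e, a Ly6 family gene also induced by interferon, rose (1659 ± 733 in PVR and 147 ± 79.9 in Normal, log2 change 3.58, limma adjusted p = 0.00995), a call lost without PVR replicate 1 (0.0521) or 2 (0.0603). Agrn, which encodes the clustering signal agrin, rose (1434 ± 193 in PVR and 997 ± 74.3 in Normal, adjusted p = 0.00977). Rapsn, the gene of the receptor-clustering protein rapsyn, did not pass (458 ± 130.1 in PVR and 638 ± 20.1 in Normal, log2 change -0.51, adjusted p = 0.0533). With the replicate number as a block it passed as lower (adjusted p = 0.0239), and likewise without PVR replicate 3 (0.0019) or without both that library and Normal replicate 2 (0.00789). Lynx1, Tmem35a, Musk and Dok7 did not pass (adjusted p 0.204 to 0.957).

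**Figure D4:**
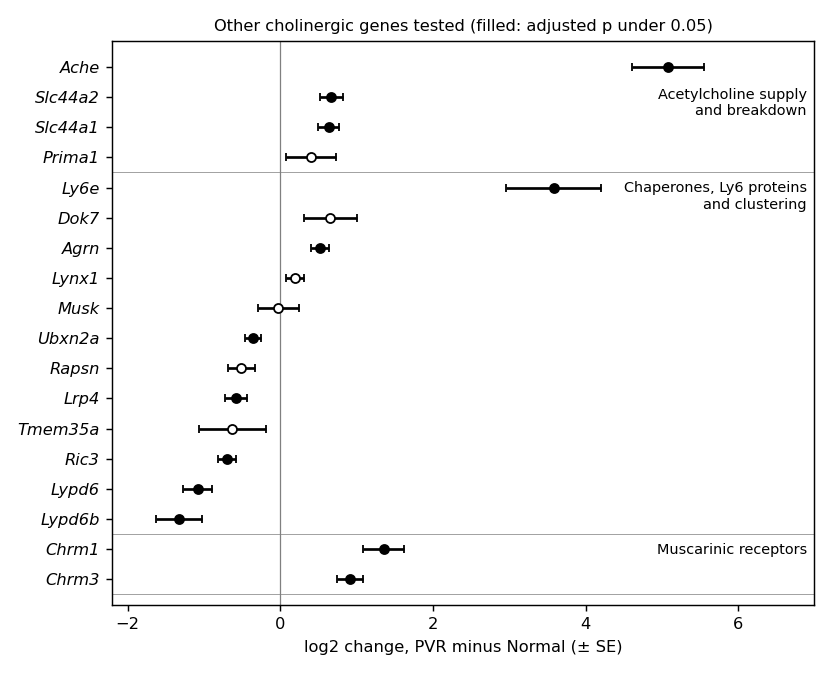
Points are log2 changes (PVR minus Normal) with their SE for the tested genes of acetylcholine supply and breakdown, of receptor assembly and clustering, and of muscarinic receptors; filled points passed an adjusted p of 0.05 in limma. Ache has the largest change at 5.09, and Lypd6b, Lypd6 and Ric3 lie at the low end.

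Factors studied on the rodent cluster promoters were measured beside the subunit genes. Of 8 tested, 2 fell and 6 did not pass (median log2 change -0.14). Sox10, which is reported to activate these promoters in cultured cells, fell (3391 ± 337 in PVR and 4556 ± 261 in Normal, log2 change -0.43, limma adjusted p = 0.0144). Its call was lost without Normal replicate 2 (0.0589) or PVR replicate 2 (0.0535), and without both Normal replicate 2 and PVR replicate 3 (0.122). Sp4 fell by 0.55 on the log2 scale (adjusted p = 0.0201), which no longer passed without any 1 of the Normal libraries or PVR replicate 1 or 2 (0.0514 to 0.0681). Sp1 (963 ± 37.0 in PVR and 955 ± 87.2 in Normal) and Sp3 (871 ± 99.4 in PVR and 813 ± 27.8 in Normal) did not pass, nor did Rest, a repressor of neuronal genes (830.0 ± 78.5 in PVR and 760.5 ± 113 in Normal). The neuronal factor genes Phox2a, Pou4f1 and Isl1 had at most 6 reads in any library.

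Markers of other cell types were set beside the subunit genes. Macrophage and microglia markers moved with the condition: 13 of 14 rose, and Csf1r, a growth factor receptor gene, fell. The median log2 change of the list was 4.47, against -0.02 for all genes tested, of which 17.9% rose. Their summed level was 32376 to 79686 in PVR, against 10415 to 11744 in Normal (a ratio of means of 5.11), with no defining marker at 0. Csf1r made up most of the Normal sum (9343 to 11181). Without it, a choice made after seeing the data, the sum was 24141 to 72111 in PVR, against 563 to 1461 in Normal, a ratio of 51.4. Among the PVR libraries the sum varied 2.46-fold with Csf1r and 2.99-fold without it and was lowest in replicate 3, while Chrnb4 varied 1.09-fold and Chrna3 1.45-fold. Fibroblast and pericyte markers also moved, 6 of 8 rising, with sums of 14750 to 19949 in PVR, against 4954 to 6304 in Normal, a 1.35-fold spread within PVR. With the replicate number as a block, Cspg4 passed as lower (adjusted p = 0.0057; 0.0854 without the block). The part of these cells in the subunit levels was not tested.

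Most markers of neurons, where these subunits are best known, had few reads, and several had more in PVR than in Normal. Of the retinal ganglion cell markers, Pou4f2 had 0, 2 and 0 reads in PVR and none in Normal, and Slc17a6 and Nefl each had 1, 2 and 0 in PVR and none in Normal. The list's sum was 198 to 268 normalised counts in PVR, against 96.9 to 119 in Normal, and most of it was Rbpms, the 1 marker of 8 that could be tested and that rose. The autonomic neuron markers summed to 23.6 to 48.4 in PVR, against 7.41 to 18.6 in Normal. The 1 of these markers that could be tested, the growth factor receptor gene Ret, had 28, 13 and 8 reads in PVR, against 11, 1 and 0 in Normal (log2 change 2.47, limma adjusted p = 0.0759, and 0.0175 with the replicate number as a block). Th, for catecholamine synthesis, had no reads in PVR and at most 3 in Normal. Among other listed neuron markers, Nefm had 7, 11 and 8 reads in PVR, against 5, 0 and 2 in Normal. Prph had 8, 16 and 15 in PVR, against 4, 4 and 9 in Normal. Isl2 went the other way, with 1, 0 and 1 in PVR, against 1, 2 and 2 in Normal. All were too low to test. Hand2 and Dbh had no values under these symbols and could not be analysed here. In counts not corrected for gene length, the ganglion cell sum in PVR was below Chrnb4 and close to Chrna3 (249 to 361). Such counts do not give the amount of subunit RNA that neurons hold. The part of neurons in the subunit levels was not tested.

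**Figure D5:**
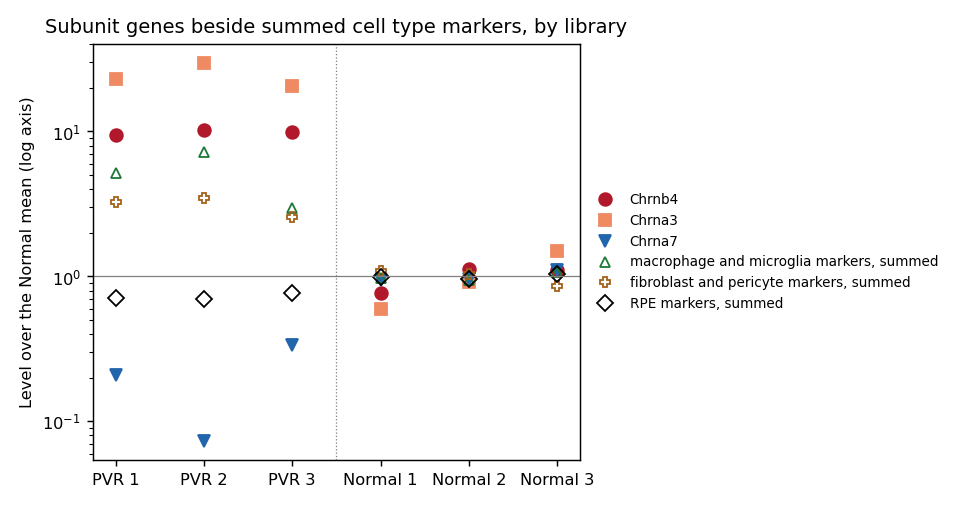
For each library, the level of Chrnb4, Chrna3 and Chrna7 and the summed levels of 3 marker lists are divided by their Normal mean and drawn on a log axis, PVR libraries on the left. Chrnb4 stays level across the PVR libraries, where the macrophage sum, which includes Csf1r, varies 2.46-fold, and Chrna7 is lowest in PVR replicate 2.

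The genes whose pattern was most like that of Chrnb4 over the 6 libraries (Pearson r of log2 values among 10151 genes with a mean of at least 100 normalised counts) were Eloa, Naprt, Cercam, Ppp1r16b and Clip3, with r of 0.998 to 0.999. Their log2 changes ranged from 0.38 (Eloa, 770.0 in PVR and 592 in Normal on average) to 2.34 (Naprt, 176 in PVR and 34.1 in Normal), so likeness in pattern did not mean likeness in size. For Chrna3 the closest were Lyplal1, Prkce and Lman1, with r of 0.998 to 0.999, of which Prkce, a protein kinase C gene, had a log2 change of 2.49. Chrna3 and Chrnb4 had r = 0.994 with each other. The 6 points fall into 2 groups, so these coefficients mostly record the difference between the groups. For Chrna5, with 0 to 3 reads per library, no such genes are named.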

How the data were processed

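Polyadenylated RNA of primary RPE cells was sequenced in 3 PVR and 3 Normal libraries, grouped by the sample titles. Per gene symbol, the authors deposited a normalised signal rather than raw counts. In each deposited library all values (100%) were whole multiples of 1 step within 0.001 reads, so the values are counts scaled by 1 size factor a library, and whole reads were recovered from them. The submitters' processing notes name DESeq2 and build mm10 but not what each was used for. Neither alignment, counting, strand setting nor annotation is stated in the sources used here, so reads of genes that overlap on opposite strands cannot be told apart. Nor is it known how reads shared by related genes were treated.

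The values, as log2(normalised count + 1), were tested in R 4.3.3 with limma 3.58.1, its variances moderated robustly along a mean trend, for 15766 genes passing filterByExpr of edgeR 4.0.16 (minimum count 10), with Benjamini-Hochberg adjustment over all of them and a threshold of 0.05. On the recovered reads the quasi-likelihood test of edgeR called 2788 genes higher and 1907 lower, and DESeq2 1.42.0 called 2889 higher and 1935 lower (22 adjusted p undefined). The scripts were tested on simulated data. Same-numbered PVR and Normal libraries deviated together from their group means (r = 0.206, 0.195 and 0.179 for replicates 1, 2 and 3). This is a weak hint of pairing from the data, which the labels do not state. The main fit did not pair libraries, and the replicate number was a block only in an alternative fit. No 2 libraries were duplicates (chi-square per gene of at least 17.8).

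Coordinates, exon lengths and neighbours are from GENCODE M21 (GRCm38, 1-based), which holds 27362 of the 28043 symbols. Promoter windows for all 7 subunit genes are from RefSeq. The subunit genes, gene lists and named-gene rule were chosen with earlier results of these data known. The rule named the 7 subunit genes, genes of the receptor lists with a group mean of at least 10, called promoter factors and neighbours, and the genes most like Chrnb4 (5) and Chrna3 (3); others named were chosen after their values were seen. Tables and figures were made in Python 3.11.15 (scipy 1.17.1, matplotlib 3.10.9, numpy 2.4.6, pandas 2.3.3).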

Additional observations from a re-analysis of the deposited data

How the results depend on the processing

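The log2 changes of the 6 subunit genes fitted kept their sign, and moved by less than the spread between replicates, under other pseudocounts, filters, scaling to library totals, edgeR, DESeq2, the replicate block (3.32 for Chrnb4, as without it) and each left-out library. Without 1 library at a time, Chrnb4 ranged from 3.15 to 3.42, Chrna3 from 4.27 to 4.88, Chrna7 from -2.91 to -1.87, Chrna4 from -0.99 to -0.58, Chrnb1 from -0.26 to -0.03 and Chrnb2 from 0.16 to 0.44. The counts of called genes were more fragile. With 1 library left out, 2193 to 2844 genes were higher and 1307 to 2026 lower (lowest without Normal replicate 1). In the 5 receptor-related lists 6 to 7 were higher and 4 to 8 lower, with 4 lower without Normal replicate 3 or PVR replicate 2. Among neighbours of the cluster 1 was higher throughout and 0 to 2 were lower, and among those of the other loci 1 to 2 were higher and 1 to 3 lower. The lower neighbours of the cluster numbered 1 with no filter, and 1 without the pair Normal replicate 2 and PVR replicate 3, which was picked after seeing the data. The replicate block (3079 genes higher and 2249 lower overall) added Rapsn and Arfgap1, so that 3 neighbours of the other loci were higher, and changed no other call of these lists and neighbours. The order of Chrna3 and Chrna7 among the 7 genes did not depend on the length used. Chrna3 in Normal and Chrna5 in both groups rest on so few reads that depth limits what can be said of them.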
